A study of Canis lupus familiaris with 12 samples.

Results

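miR-26a and miR-26b were followed in CHMm, a dog mammary tumor line grown from the pleural effusion of a bitch with metastatic disease, and in CHMmTAM, the tamoxifen (TAM)-resistant line derived from it. The rows named exactly cfa-miR-26a and cfa-miR-26b were taken from the miRNA count table, that is, 2 of the 453 miRNAs listed. Both passed the filter of at least 10 counts over the 6 libraries, as did 284 miRNAs in all. CHMmTAM was selected with rising TAM over 10 months, to a final 10 μM, and was then kept at that concentration for 1 month and without drug for 1 week. Both lines grew in phenol-red-free medium with steroid-depleted serum, antibiotics and amphotericin, and the study's methods list 4-hydroxytamoxifen in the medium without saying for which line. Each line was sequenced in 3 small RNA libraries. The 3 libraries of CHMmTAM all come from 1 selected line, so resistance and other differences that arose over the months of culture cannot be told apart. Nothing in the labels says that the libraries of a line come from separate cultures, so the p-values measure the spread between these libraries, which may be technical.

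miRNAs guide Argonaute proteins to messenger RNAs that pair with their seed, the bases near the 5′ end. miR-26a and miR-26b share a seed and differ in only a few bases outside it. They are known to repress EZH2, the methyltransferase of Polycomb repressive complex 2, and cell cycle genes, and to be held down by MYC and by oestrogen in breast cancer cells. They are usually transcribed within introns of genes for small C-terminal domain phosphatases, which act on RNA polymerase II. Among the RefSeq genes of the dog assembly UU_Cfam_GSD_1.0, miR-26a has 2 genes, MIR26A-1 within the span of CTDSPL and MIR26A-2 within that of CTDSP2. miR-26b has 1 gene, MIR26B, within the span of CTDSP1. None of these 3 host genes spans another annotated miRNA gene. The table has a single entry for miR-26a, so the share from each of its 2 genes cannot be read from it. The host transcripts and the miRNA sequences were not analysed here.

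The libraries held between 7512659 and 12482211 counts, and miR-21 alone took from 50.2% to 54.5% of them. Libraries of the same line differed by more than sampling noise, the chi-square per degree of freedom being at least 22.2 and at most 69.3, so none was treated as a repeat deposit. The epithelial miRNAs miR-200c, miR-205 and miR-203 had at least 90736, 29676 and 14146 counts in every library. Of the blood cell miRNAs, miR-142 and miR-223 had at most 62 and 14. The study lists miR-486, also a blood cell miRNA, as higher in CHMmTAM, and its counts are not given here. As CPM of the library total, that is, counts scaled to a common library size, miR-142 was between 2.50 and 3.49 in CHMm and between 4.79 and 5.60 in CHMmTAM. It was called higher in CHMmTAM, with a log2 fold change of 0.77 (edgeR FDR of 0.00359), and its part in the results was not tested.

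The first question was whether the level of miR-26 differs between the parental and the resistant line. miR-26a and miR-26b were both lower in CHMmTAM, by 31.3% and 30.8%. In raw counts, miR-26a had 94737, 134585 and 106207 reads in CHMm replicates 1, 2 and 3, and 113195, 86121 and 66480 in CHMmTAM replicates 1, 2 and 3. Scaled by edgeR's TMM factors to CPM, the counts a library of a common standard size would hold, these became 12954, 11587 and 11871 CPM in CHMm and 8862, 7808 and 8352 CPM in CHMmTAM. All 3 CHMmTAM libraries lay below all 3 CHMm libraries, and the gap of 2725 CPM between the lines was wider than the range within CHMm, 1367 CPM, or within CHMmTAM, 1054 CPM. CHMm averaged 12137 ± 721 CPM and CHMmTAM 8341 ± 527 CPM (SD, n = 3 each). The log2 fold change was -0.54 (standard error 0.06, 95% interval from -0.67 to -0.42, edgeR quasi-likelihood FDR of 5.56e-16 after Benjamini-Hochberg adjustment).

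For miR-26b, 44354, 62105 and 48204 reads were counted in CHMm replicates 1, 2 and 3, and 51021, 41046 and 31080 in CHMmTAM replicates 1, 2 and 3. After scaling these were 6065, 5347 and 5388 CPM in CHMm and 3994, 3721 and 3905 CPM in CHMmTAM. The lines did not overlap here either, with a gap of 1353 CPM between them, against a range of 718 CPM within CHMm and 273 CPM within CHMmTAM. CHMm averaged 5600 ± 403 CPM and CHMmTAM 3873 ± 139 CPM (SD, n = 3 each), a log2 fold change of -0.53 (standard error 0.06, 95% interval from -0.66 to -0.40, edgeR FDR of 5.49e-15). Replicate 1 was the highest and replicate 2 the lowest library in each line for both miRNAs.

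**Figure D1:**
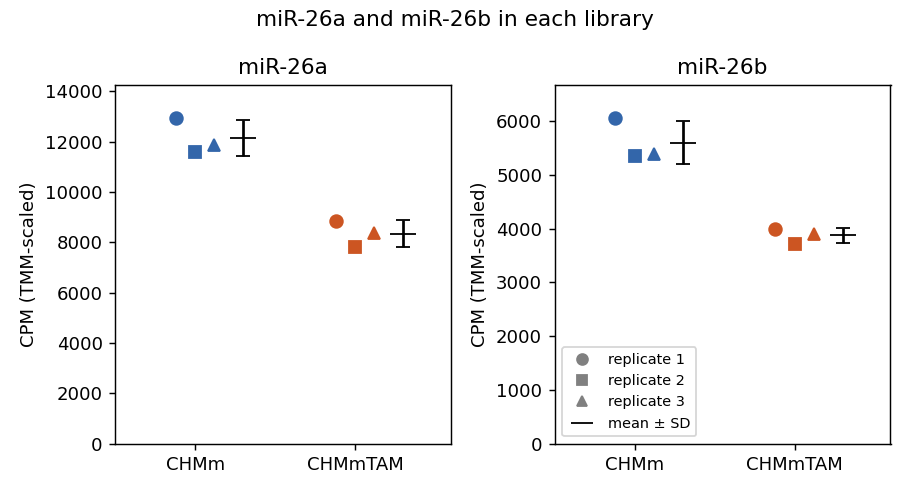
TMM-scaled CPM of miR-26a (left) and miR-26b (right) in each library, with the mean and SD of the 3 libraries of each line at the right of the points. For both miRNAs the 3 CHMmTAM libraries lie below the 3 CHMm libraries, with means of 8341 against 12137 CPM for miR-26a and 3873 against 5600 CPM for miR-26b.

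Both falls passed the FDR threshold of 0.05, which 44% of the 284 tested miRNAs passed, 18.7% as lower and 25.4% as higher in CHMmTAM. All 3 CHMmTAM libraries lay below all 3 CHMm libraries for 22.9% of the tested miRNAs. Neither member reached the log2 fold change beyond 1 that the study also required, which 11.3% of the tested miRNAs did together with the FDR threshold, and both intervals end short of it. Of all 284 tested miRNAs, 45 had a lower log2 fold change than miR-26a and 47 a lower one than miR-26b. Among the 26 miRNAs with a mean of at least 4000 CPM over the 6 libraries, 11 were lower and 6 higher in CHMmTAM at that FDR, and 3 had a lower log2 fold change than miR-26a, namely miR-221, miR-222 and miR-205. The library totals say nothing of the amount of RNA per cell, so a lower level per cell and a lower share of each cell's miRNA cannot be told apart.

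**Figure D2:**
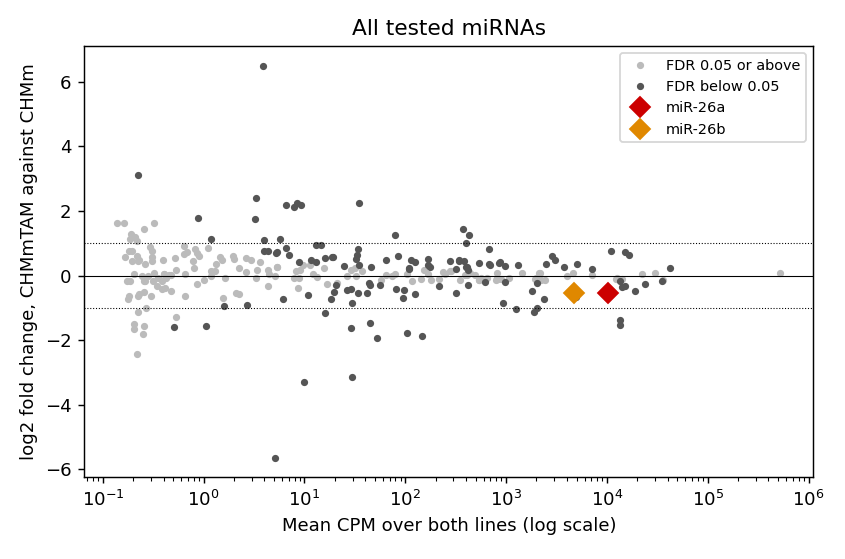
Log2 fold change of CHMmTAM against CHMm for the 284 tested miRNAs by their mean CPM over both lines (log scale), with dotted lines at 1 and -1. miR-26a at -0.54 and miR-26b at -0.53 lie among the abundant miRNAs, inside the dotted lines and below 0.

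As a share of all counts, miR-26a took 1.21% ± 0.04 (SD, n = 3) in CHMm and 0.834% ± 0.066 (SD, n = 3) in CHMmTAM. miR-26b took 0.560% ± 0.027 in CHMm and 0.387% ± 0.019 in CHMmTAM (SD, n = 3 each). At these depths counting error is small: the widest 95% Wilson interval of a miR-26a share, that of CHMm replicate 1, ran from 1.25% to 1.27%. The intervals cover counting error only. The CV between libraries was 5.94% in CHMm and 6.32% in CHMmTAM for miR-26a, and 7.20% and 3.59% for miR-26b, where counting alone would give at most 0.388% and 0.567%. Because miR-21 takes so many of the counts, the shares were also taken of the remaining counts. There the pair together held 3.83%, 3.45% and 3.57% in CHMm replicates 1, 2 and 3, and 2.84%, 2.50% and 2.63% in CHMmTAM replicates 1, 2 and 3. All 3 CHMmTAM libraries lay below all 3 CHMm libraries on this scale too. Across the 9 pairs of a CHMmTAM with a CHMm library, the ratio of CHMmTAM to CHMm CPM ran from 0.603 to 0.765 for miR-26a and from 0.614 to 0.747 for miR-26b.

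The second question was whether the 2 miRNAs, which come from different genes, changed by the same factor. The number of miR-26a reads for each miR-26b read was 2.14, 2.17 and 2.20 in CHMm replicates 1, 2 and 3, and 2.22, 2.10 and 2.14 in CHMmTAM replicates 1, 2 and 3. The lines overlapped, and the highest and the lowest of the 6 ratios both came from CHMmTAM. miR-26a made up from 67.7% to 68.9% of the reads of the pair in every library. On the log2 scale the mean ratio was 1.12 ± 0.02 (SD, n = 3) in CHMm and 1.11 ± 0.04 (SD, n = 3) in CHMmTAM. The difference of CHMmTAM from CHMm was -0.012, with a 95% interval from -0.086 to 0.063 computed from the spread of the libraries. A two-sided exact permutation test gave p = 0.8, where 3 against 3 libraries cannot give a p below 0.1. The interval corresponds to a change of the ratio by a factor between 0.942 and 1.04, so a larger divergence of the pair lies outside it, while a smaller one was not detectable with 3 libraries a line. This ratio does not depend on the scaling of the libraries. It varied less between libraries than either level did, with a CV of 1.55% in CHMm and 2.85% in CHMmTAM. One mature miRNA gives 1 read whatever its length, but how well each of them is ligated and amplified is unknown, so the ratio is one of reads and not of molecules. Reads that match both sequences could also be counted on either, and how the counting treated them is not given in the sources used here. With the counts of both miRNAs summed into 1 entry and the TMM factors recomputed, the log2 fold change was -0.52 (standard error 0.07, edgeR FDR of 6.17e-14), from 17658 ± 1297 CPM in CHMm to 12275 ± 699 CPM in CHMmTAM (SD, n = 3 each).

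**Figure D3:**
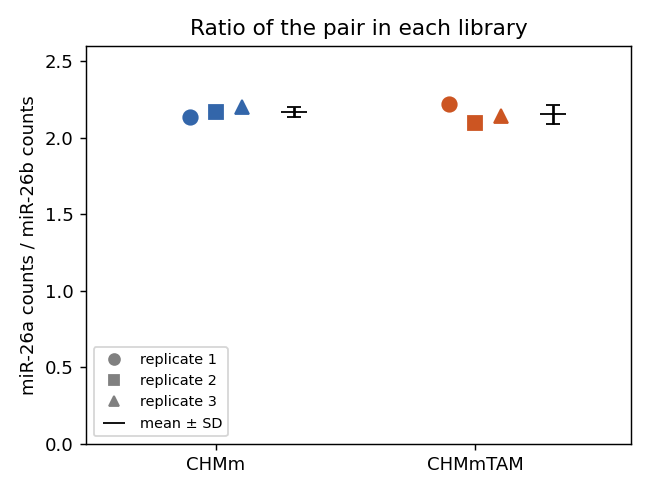
miR-26a counts divided by miR-26b counts in each library, with the mean and SD of the 3 libraries of each line. The ratios lie between 2.10 and 2.22, and the lines overlap.

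miR-26a held the same rank in both lines, although other miRNAs crossed it. miR-221 and miR-222 lay above it in CHMm and below it in CHMmTAM, and miR-96 and miR-183 the reverse. By mean CPM miR-26a ranked 18 of the 284 tested miRNAs in CHMm and 18 in CHMmTAM. In CHMm its libraries overlapped with those of the next miRNAs above it, miR-30d at 12577 ± 206 CPM and the epithelial miR-200c at 12807 ± 504 CPM (SD, n = 3 each), and with those of miR-96 below it, at 11327 ± 235 CPM. In CHMmTAM, miR-30d at 11765 ± 427 CPM and miR-200c at 12272 ± 326 CPM stood above it without overlap, and miR-222 at 7573 ± 385 CPM overlapped with it from below. miR-26b ranked 24 in CHMm and 27 in CHMmTAM. In CHMm it overlapped with miR-205, a miRNA of basal epithelium, at 5998 ± 139 CPM. In CHMmTAM it overlapped with miR-378, miR-186, miR-205 and miR-93, all between 3594 and 4088 CPM, so its place among these is not resolved. The miRNAs next to the members by mean over all 6 libraries did not share a direction. The log2 fold change was 0.77 for miR-183, 1 rank above miR-26a, and 0.0029 for miR-92a, 1 rank below it, with 7116 ± 370 CPM in CHMm and 7130 ± 423 CPM in CHMmTAM (SD, n = 3 each). miR-205, 1 rank above miR-26b, was at -0.66, and miR-181d, 1 rank below it, at 0.07, or -0.17 under upper-quartile normalization.

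The patterns over the 6 libraries were compared among the 117 miRNAs with a mean of at least 50 CPM, as the Euclidean distance between log2 CPM values centred on each miRNA's own mean. The nearest to miR-26a was miR-26b, at a distance of 0.067, followed by miR-532 at 0.097 and miR-92b at 0.148, against a median distance of 0.778. The nearest to miR-26b was miR-532, at 0.044, followed by miR-26a at 0.067 and miR-92b at 0.157. miR-532 fell from 378 ± 25.8 CPM to 260 ± 7.75 CPM (SD, n = 3 each), a log2 fold change of -0.54 (edgeR FDR of 2.11e-12). miR-92b fell from 112 ± 2.99 CPM to 82.4 ± 4.75 CPM (SD, n = 3 each), a log2 fold change of -0.44 (edgeR FDR of 1.05e-06). These distances rest on 6 libraries in 2 lines and are a description.

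The third question was how other miRNAs of the pathways in which miR-26 is known moved between the lines. For scale, the log2 fold changes of the 284 tested miRNAs had a median of 0.06. Upper-quartile normalization moved that median to -0.18, and each miRNA by about the same amount, so values under it are given beside those whose sign or call it changes. Each list's count is to be read against the 44% of all tested miRNAs that passed, 18.7% as lower and 25.4% as higher in CHMmTAM. Most tested miRNAs of each list had a mean of at least 50 CPM. Among the 117 tested miRNAs at that level, more passed, 26.5% as lower and 33.3% as higher. Of 13 miRNAs known to repress EZH2 besides miR-26, 11 were tested. 4 were lower and 2 higher in CHMmTAM at an FDR below 0.05, and 5 did not pass, where 44% of all tested miRNAs passed. All 4 lower miRNAs belong to the let-7 family, as does the higher let-7g, so these calls are mostly those of a single family. The median log2 fold change of the list was -0.09. Under upper-quartile normalization 6 were lower and none was higher. With RLE size factors 4 were lower and 1 was higher. Without the 10 most abundant miRNAs in the scaling 4 were lower and none was higher. let-7e and let-7b, of the tumor-suppressive let-7 family, fell by 1.04 and 0.32 on the log2 scale, and let-7a fell by 0.18. let-7g, the most abundant of the list, rose from 39393 ± 2102 CPM to 46078 ± 2279 CPM (SD, n = 3 each), a log2 fold change of 0.23, but was at -0.01 under upper-quartile normalization. It also lost its call without the 10 most abundant miRNAs in the scaling, at 0.17 (edgeR FDR of 0.0524). let-7f was at 0.05, or -0.18 under upper-quartile normalization, and the lines overlapped. miR-101, which pairs with the EZH2 messenger RNA, was at 299 ± 20.6 CPM in CHMm and 344 ± 20.5 CPM in CHMmTAM (SD, n = 3 each). Its log2 fold change was 0.20 (edgeR FDR of 0.0146), but -0.04 under upper-quartile normalization, and the lines overlapped. miR-101 also lost its call with RLE size factors, at 0.14 (edgeR FDR of 0.0953). The same held without the 10 most abundant miRNAs in the scaling, at 0.14 (edgeR FDR of 0.0924). No library held more than 1 count of miR-124 or of miR-217, and neither was tested.

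Of 21 miRNAs known to be repressed by MYC besides miR-26, 20 were tested. 6 were lower and 3 higher in CHMmTAM and 11 did not pass, where 44% of all tested miRNAs passed. Among tested miRNAs with a mean of at least 50 CPM, as most of this list had, 26.5% were lower and 33.3% higher. The median log2 fold change of the list was -0.13. The let-7 miRNAs of this list are also in the EZH2 list, so the counts of these lists are not independent. The lower members include miR-29a at -0.17 and miR-29c at -0.44, which target collagens and DNA methyltransferases. The log2 fold change of miR-30d, another abundant member, was -0.10, and did not pass, but it passed with upper-quartile normalization, at -0.34, and with RLE size factors, at -0.16. miR-30a, at 0.39, and miR-34a, a target of p53, at 0.46, were higher. Under upper-quartile normalization miR-34a kept its call, at 0.22, and miR-30a lost it, at 0.15 (edgeR FDR of 0.0804). None of the 20 had a log2 fold change below that of miR-26a, the lowest being miR-29c at -0.44. Nor did any tested miRNA of the MYC-induced and oestrogen-responsive lists, and only 45 of all 284 tested miRNAs did. The difference between miR-26 and the other members of the MYC-repressed list was not tested. With RLE size factors 12 of the 20 were lower and 3 higher, and with upper-quartile normalization 15 were lower and 1 higher.

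Of the 6 miRNAs of the MYC-induced miR-17-92 cluster, 4 were higher and 2 did not pass, where 25.4% of all tested miRNAs were higher. The median log2 fold change of the list was 0.35. Under upper-quartile normalization 2 were higher and 1 was lower. miR-20a rose from 4367 ± 199 CPM to 5654 ± 742 CPM (SD, n = 3 each), a log2 fold change of 0.37, but under upper-quartile normalization it lost its call, at 0.13 (edgeR FDR of 0.136). miR-18a and miR-19a rose by 0.45 and 0.46 on the log2 scale, and kept their calls under that scaling, at 0.21 and 0.22. miR-92a, also of this list, had the log2 fold change of 0.0029 given above, and was at -0.24 under upper-quartile normalization, with an edgeR FDR of 0.00319. The counts do not show which gene its reads came from.

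Of 14 miRNAs known as oestrogen-responsive in breast cancer cells, 8 were higher and 1 was lower in CHMmTAM and 5 did not pass, where 25.4% of all tested miRNAs were higher and 18.7% lower. The median log2 fold change of the list was 0.31. The list does not separate miRNAs raised by oestrogen from those lowered by it, so these counts give no direction of oestrogen action. All 6 miRNAs of the miR-17-92 cluster are also in this list and give 4 of its 8 higher calls, so these calls are not independent. miR-181a rose from 251 ± 7.47 CPM to 601 ± 24.7 CPM (SD, n = 3 each), a log2 fold change of 1.26, and miR-181b rose by 0.84 on the log2 scale. miR-203, a miRNA of stratified epithelium, was the lower one, at -0.24. miR-191 and miR-425, which share a host gene, were at 0.19 and 0.29, and at -0.05 and 0.04 under upper-quartile normalization. miR-21 was at 0.09, or -0.15 under upper-quartile normalization, and did not pass. Under upper-quartile normalization 4 of the 14 were higher and 3 lower.

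Of 8 miRNAs known to target ESR1, the gene of oestrogen receptor alpha, 7 were tested. 2 were lower, 2 were higher and 3 did not pass, where 44% of all tested miRNAs passed. The median log2 fold change of the list was 0.07, but -0.17 under upper-quartile normalization, -0.03 without CHMmTAM replicate 1 and 0.19 without CHMmTAM replicate 2. miR-221 and miR-222, at -1.52 and -1.36, were the lower ones, while miR-18a, at 0.45, and miR-20b, at 0.58, were higher. miR-22 was at 0.07, or -0.17 under upper-quartile normalization, and the lines overlapped. No library held more than 3 counts of miR-206, which was not tested.

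**Figure D4:**
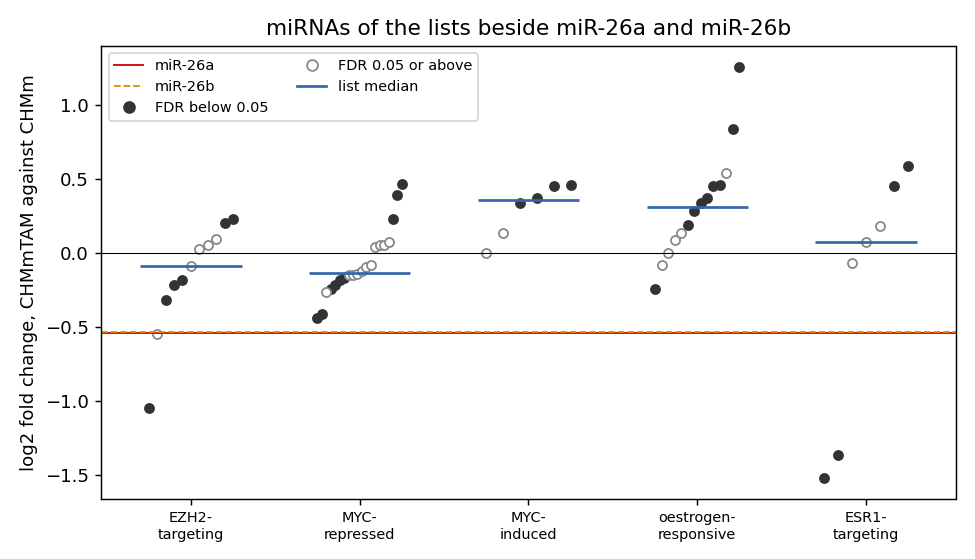
Log2 fold change of CHMmTAM against CHMm for the tested miRNAs of each list, with filled points at an FDR below 0.05, the list median in blue, and horizontal lines at miR-26a (-0.54) and miR-26b (-0.53). The medians lie between -0.13, for the MYC-repressed list, and 0.35, for the MYC-induced list. No point of the MYC-repressed, MYC-induced or oestrogen-responsive list lies below the lines of miR-26a and miR-26b.

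The fall of miR-26 was also read against the centre of all tested miRNAs, since the scaling moves all values together. miR-26a lay 0.60 log2 units below the median of the tested miRNAs with TMM, and from 0.60 to 0.61 below it under each of the other scalings, DESeq2 and limma-voom. Agreement between scalings follows from the subtraction, so it is no separate test of the fall. The lowest log2 fold changes of the pair, -0.78 and -0.77, came with upper-quartile normalization, which moved the median itself.

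**Figure D5:**
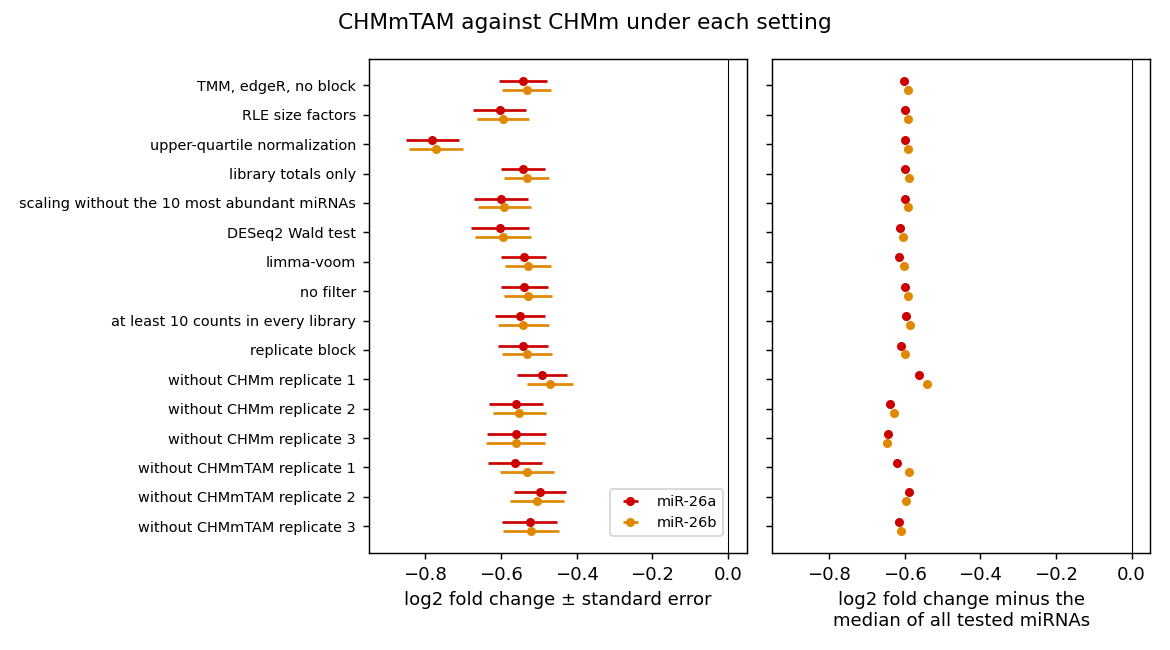
Log2 fold change of miR-26a and miR-26b with its standard error under each setting (left) and the same minus the median of all tested miRNAs (right). All values lie below 0, between -0.78 and -0.47 on the left and between -0.65 and -0.54 on the right.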

How the data were processed

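The deposited values are unnormalized read counts for each dog miRNA, with a column for each of 6 HiSeq small RNA libraries. The submitters' processing notes list HISAT2 2.0.4, BWA and CanFam3.1 without their roles. Adapter trimming, the miRNA database and the handling of ambiguous reads are not given in the sources used here; these could move counts between miR-26a and miR-26b.

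Libraries were grouped by their titles, 3 per line. miRNAs with at least 10 counts over all libraries were fitted with edgeR 4.0.16 in R 4.3.3 (TMM, quasi-likelihood test, no block; biological coefficient of variation 6.04%), with Benjamini-Hochberg adjustment over 284 miRNAs. Standard errors were taken from each coefficient and its F value. The fit was tested on simulated data with as many rises as falls, so that test does not bear on the choice of scaling. DESeq2 1.42.0, limma 3.58.1 and other scalings, filters and left-out libraries were alternatives. A level of 3 counts was equal to between 0.240 and 0.399 CPM. Python 3.11.15, SciPy 1.17.1, pandas 2.3.3 and matplotlib 3.10.9 were used for the remaining steps.

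The members and lists were chosen with earlier results of these data known. By rule, the text names both members, examples from each list among its most abundant miRNAs, 3 nearest patterns and the neighbours in abundance. The other names, namely let-7e, miR-101, miR-124, miR-217, miR-29c, miR-30d, miR-30a, miR-34a, miR-181a, miR-181b, miR-203, miR-425, miR-20b, miR-206, the epithelial and blood cell miRNAs, and the neighbours within each line, were chosen after their values were seen. RNA-seq libraries were not analysed here. RefSeq coordinates are of another assembly, so none are given.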

Additional observations from a re-analysis of the deposited data

How the results depend on the processing

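The log2 fold changes of miR-26a, miR-26b and their sum kept their sign and stayed below an FDR of 0.05 under all 15 alternatives each. The largest FDR was 4.66e-05, from edgeR's quasi-likelihood test without CHMm replicate 1. With a single library left out, the values ran from -0.56 to -0.49 for miR-26a, from -0.56 to -0.47 for miR-26b and from -0.57 to -0.46 for the sum. The difference in the log2 ratio of the pair ran from -0.034 to 0.0065 when each library was left out, with the positive value 0.0065 without CHMmTAM replicate 2, and no call rests on it.

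In total 125 miRNAs passed the FDR threshold, 72 higher and 53 lower, so 57.6% were higher. The higher share was 46.7% with RLE size factors, 29.1% with upper-quartile normalization, 48.1% without the 10 most abundant miRNAs in the scaling and 47.6% with DESeq2. With the fold-change threshold added, 32 passed. For the MYC-repressed list, 9 passed, against 15 with RLE size factors and 16 with upper-quartile normalization. The EZH2-targeting list had 6 calls and from 4 to 6 when a library was left out, with 4 without CHMm replicate 1, CHMm replicate 2 or CHMmTAM replicate 2.

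With the replicate block, miR-26a was at -0.54, miR-26b at -0.53 and their sum at -0.52, 126 miRNAs passed and the ratio differed by -0.012. Same-numbered libraries had correlations of 0.06, 0.46 and -0.31 of their deviations over 117 miRNAs, and 2 of the 6 libraries correlated best with their own number. For both members, replicate 1 was the highest and replicate 2 the lowest in each line, as given above. With 3 number pairs, these values cannot show whether same-numbered libraries were handled together, and the labels give only the number.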
